A study of Mus musculus with 6 samples.

Results

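The nuclear receptors other than the thyroid hormone receptors were described as 44 mouse genes, chosen by symbol from the receptor superfamily. The choice was made with earlier results of these data known. Each symbol matched 1 Ensembl gene among the 39179 genes of the count data. Poly(A) RNA of inner ear sensory epithelium had been sequenced in 6 libraries, 3 from the cochlea, the organ of hearing, and 3 from the vestibule, the organ of balance. All 6 came from untreated wild-type C57Bl/6J mice at postnatal day 0, males and females together, and the labels give pools of at least 20 cochleae or vestibules and 450 ng of RNA for a library. The study's methods name 20 inner ears and do not say whether that number stands for each library or for all of them. The question was how the expression of these receptors differs between the newborn cochlea and vestibule. Neither the labels nor the methods say whether the 3 libraries of a tissue came from separate RNA pools, so the p-values below measure the spread between these libraries, which may be technical.

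Nuclear receptors are transcription factors that share a zinc-finger DNA-binding domain and, in most members, a pocket for a small lipophilic ligand. Many pair with a retinoid X receptor on DNA, exchange corepressors for coactivators when ligand binds, and so couple retinoids, steroids, vitamin D, sterols and fatty acids to gene expression. Retinoic acid, glucocorticoids and the oestrogen-related and COUP-TF receptors are known for roles in inner ear development, ion transport and hearing.

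Counts assigned to genes ranged from 24464483 to 29225105 in the cochlear libraries and from 25476572 to 33664793 in the vestibular libraries, so that 1 CPM (counts per 1000000 counts assigned to genes) stood for 24.5 to 33.7 counts. Markers of hair cells and of supporting cells had counts in every library, and so had the marker lists of other cells, in unequal amounts. Summed TMM-scaled CPM (CPM after the trimmed mean of M-values scaling of library sizes) of 10 hair cell markers was 230.1 to 366.2 in cochlear and 829.1 to 1001 in vestibular libraries, with 6 of 10 called higher in the vestibule. Of 10 supporting cell markers 7 were called higher in the cochlea, while 1 was higher in the vestibule, with sums of 1576 to 1782 and 807.1 to 982. Sums for 10 neuronal markers were 317.4 to 686.2 in the cochlea, lowest in the third cochlear library, and 134.3 to 351.5 in the vestibule, with 5 of 10 called higher in the cochlea. All 10 macrophage markers were called higher in the vestibule (103.7 to 126.5 against 363.9 to 436.4), as were 7 of 9 endothelial (with 1 called higher in the cochlea), 6 of 7 melanocyte, 7 of 10 dark and marginal cell and 4 of 8 Schwann cell markers. Markers of mesenchyme (2 of 11 higher in the cochlea, 3 in the vestibule) and of cartilage (2 and 3 of 8) were called in both directions. Skeletal muscle markers summed to 305.5 CPM in the third cochlear library and to 7.45 and 15.1 in the others of that tissue. The part of these cell mixtures in the receptor values was not tested, and in bulk tissue fewer cells of a type and less RNA per cell cannot be told apart.

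Of the 44 receptor genes 32 had at least 1 CPM in 3 or more libraries, and 29 of these reached that level in all 6. Nr2e1 and Rorb passed only through the cochlea, and Esr2 reached 1 CPM in 4 libraries. The 12 genes that did not pass were Pparg, Nr1h4, Nr1i2, Nr1i3, Hnf4a, Hnf4g, Esr1, Nr2e3, Nr5a1, Nr5a2, Nr0b1 and Nr0b2. Many of them are best known from liver, gut, fat, retina, gonad or adrenal gland. Nr5a2 stood closest to the threshold, with 19 to 29 counts in the cochlear and 20 to 46 in the vestibular libraries, or up to 1.47 TMM-scaled CPM. No count was assigned to Nr0b1 in any library, which allows a level of up to 0.0891 to 0.123 CPM depending on the library, counting error only.

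Among the 32 detected receptor genes 14 differed between the tissues at an adjusted p of 0.05 or less, 9 higher in the cochlea and 5 higher in the vestibule. Tests were edgeR quasi-likelihood tests of the counts with Benjamini-Hochberg adjustment over all 14723 genes tested, and every log2 fold change is given as vestibule minus cochlea. Over all genes tested, 11.6% were called higher in the cochlea and 15.8% higher in the vestibule, against 28.1% and 15.6% of the detected receptors, so that the share higher in the vestibule was near that of all genes. Without Nr2e1 and Rorb, which passed the filter through the cochlea alone, 7 of 30 receptors (23.3%) were called higher in the cochlea. The 3 libraries of a tissue lay wholly above those of the other for 19 of the 32 receptors (59.4%), for 17 of 30 (56.7%) without Nr2e1 and Rorb, and for 41.8% of all genes. The median log2 fold change of the detected receptors was -0.03, beside 0.0048 for all genes, and the median size of the change was 0.40, beside 0.32 for all genes. Changes over 4-fold were called for 7 of the 32 receptors and for 5 of 30 without Nr2e1 and Rorb, while 5.86% of all genes tested were called with a change of that size. Without TMM scaling the median of all genes moved to 0.13, and the share of all calls that were higher in the vestibule moved from 57.6% to 68.8%. Under that scaling each of the 14 receptors was still called, and Nr1d1 was added.

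**Figure D1:**
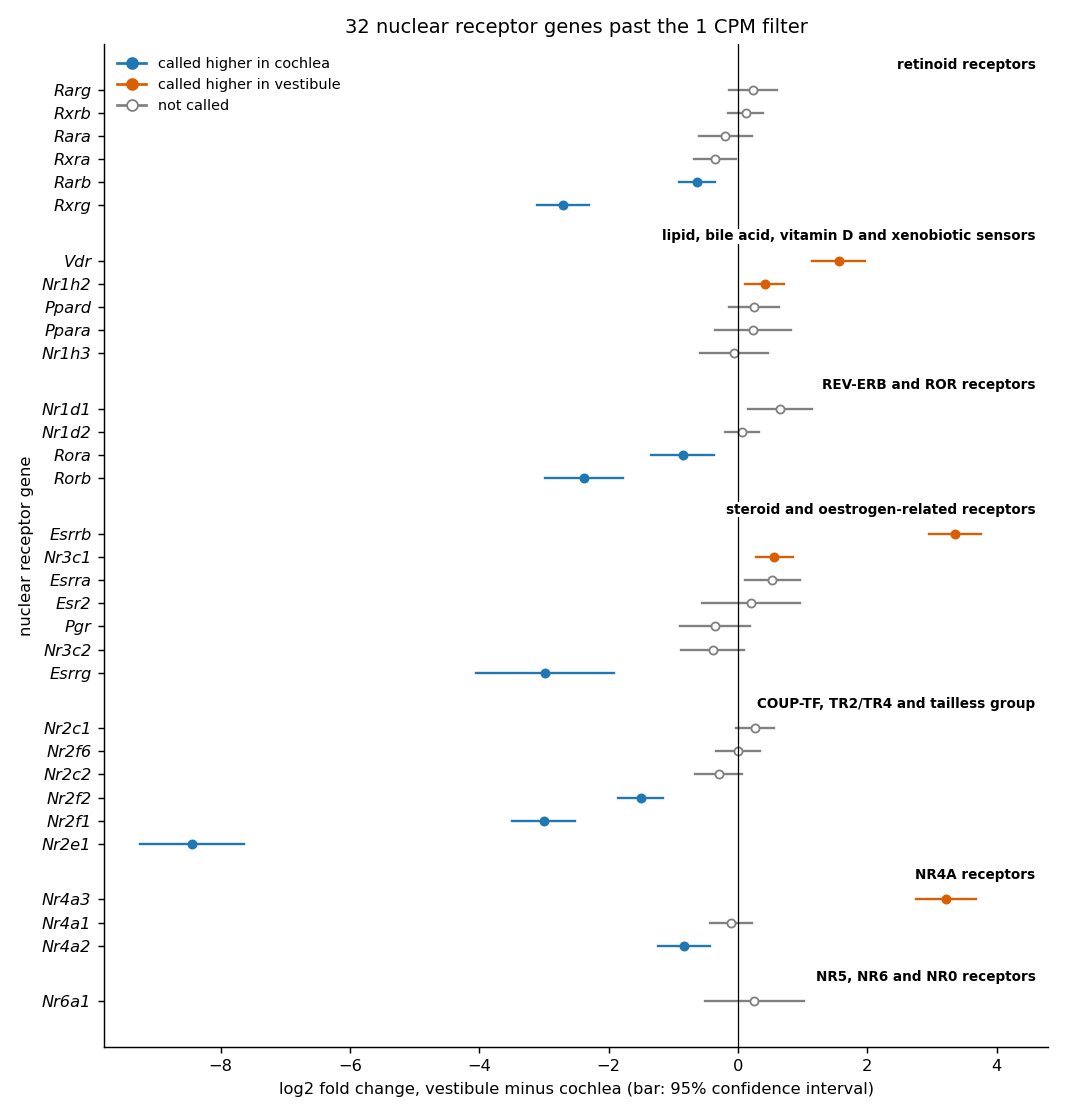
Log2 fold change (vestibule minus cochlea, x axis) of the 32 detected receptor genes by role group, with 95% confidence intervals from the quasi-likelihood fit. Filled points are the 14 called genes, which run from -8.45 for Nr2e1 to 3.35 for Esrrb, and open points are the 18 genes that were not called.

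Both receptor families of vitamin A signalling were detected in full. Of the 6 genes 2 were called, each higher in the cochlea, beside 11.6% of all genes. The retinoic acid receptors (RAR) bind all-trans retinoic acid and the retinoid X receptors (RXR) are their partners on DNA. Rarb (chr14:16430839-16819156, GRCm38), itself a classic retinoic acid target, had 52.5, 56.4 and 52.6 TMM-scaled CPM in the cochlear libraries 1 to 3 and 32.7, 38.0 and 32.9 in the vestibular libraries. The tissues did not overlap, and Rarb was 1.56-fold higher in the cochlea (log2 fold change -0.64, SE 0.12, adjusted p = 0.00467). Exons of Rarb overlap Top2b on the opposite strand, and whether the deposited counting used strand is not given in the sources used here. Its promoter is shown because it holds a spaced repeat known from retinoic acid response elements.

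Rarb: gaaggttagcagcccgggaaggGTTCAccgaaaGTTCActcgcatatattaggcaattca

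The capitals mark 2 copies of GTTCA with 6 bases between them, in 60 bases of the RefSeq promoter at chr14:16575491-16575550 (GRCm38.p6, minus strand), which lie from 52 to 37 bases before the start site. Searched on both strands, this arrangement was found in 25 of 32851 RefSeq promoter windows (0.0761%) of 250 bases before to 50 after a start, and among the receptors in Rarb alone. Windows were at hand for 41 of the 44 receptors, without Nr3c1, Nr5a1 and Hnf4g. A match is a description of letters, not a measured binding site.

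Rxrg (chr1:167598384-167639623), the RXR gene with the narrowest known expression, had 23.1, 20.0 and 17.9 TMM-scaled CPM in cochlear and 3.01, 3.04 and 3.26 in vestibular libraries. Every cochlear library stood several-fold above every vestibular library, and the gene was 6.55-fold higher in the cochlea (log2 fold change -2.71, SE 0.18, adjusted p = 1.49e-05). Rxra, the widespread partner of many receptors, had 166.7, 208.8 and 212.1 CPM in cochlear and 138.4, 160.6 and 159.9 in vestibular libraries. These values did not overlap either, but Rxra did not pass the test (log2 fold change -0.36, 95% interval -0.68 to -0.04, adjusted p = 0.0942). Rxrb had 75.8, 70.3 and 82.9 CPM against 81.6, 86.3 and 81.0, and the ranges overlapped (log2 fold change 0.12, adjusted p = 0.493). Rara had 45.2, 63.0 and 70.8 CPM in cochlear and 50.001, 58.3 and 47.7 in vestibular libraries, and the widest spread of the RAR genes lay within the cochlea (log2 fold change -0.20, adjusted p = 0.450). Rarg, best known from skin and cartilage, had 48.6, 42.5 and 57.8 CPM in cochlear and 61.9, 64.4 and 49.1 in vestibular libraries, again with overlap (log2 fold change 0.24, adjusted p = 0.317).

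**Figure D2:**
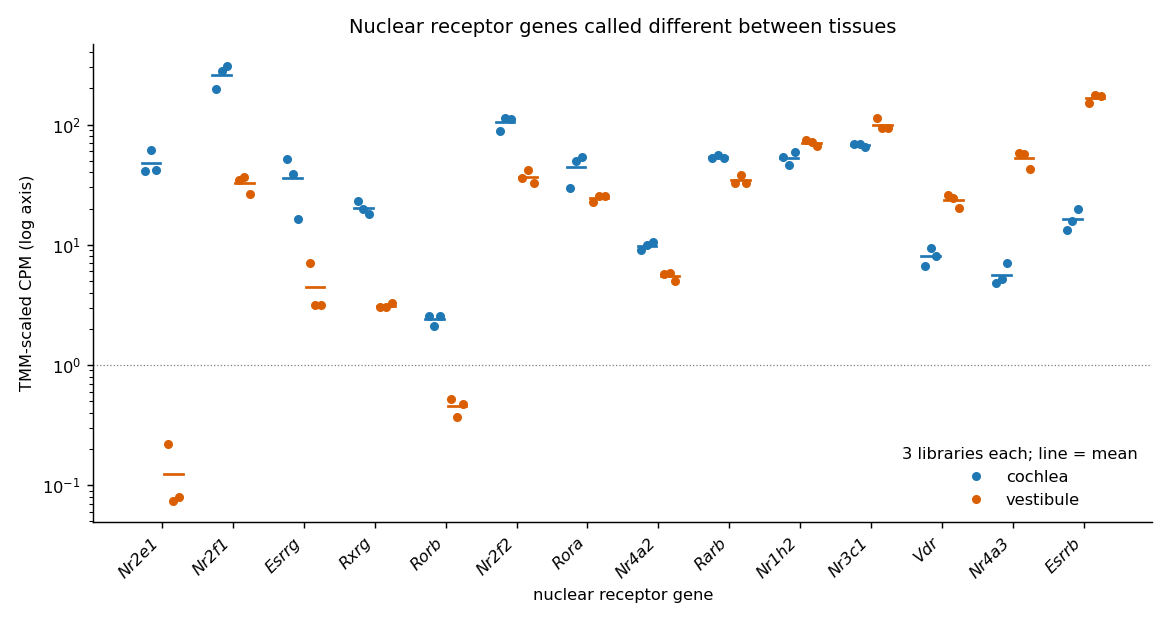
TMM-scaled CPM (log axis) of the 14 called receptor genes in every library, cochlea in blue and vestibule in orange, with a line at each tissue mean and a dotted line at 1 CPM. The 3 libraries of a tissue lie apart from those of the other for each gene, by the widest gap for Nr2e1 and the narrowest for Rora and Nr1h2.

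Of the 11 sensors of lipids, bile acids, vitamin D and foreign compounds, 5 were detected. Of these 2 were called, each higher in the vestibule, beside 15.8% of all genes. Vdr (chr15:97854425-97910630), the vitamin D receptor, had 6.62, 9.36 and 8.14 TMM-scaled CPM in cochlear and 26.0, 24.6 and 20.4 in vestibular libraries. No vestibular value came near the cochlear ones, and Vdr was 2.94-fold higher in the vestibule (log2 fold change 1.56, SE 0.18, adjusted p = 0.000336). Nr1h2 (chr7:44549616-44553951), which encodes the oxysterol receptor LXR-beta, had 54.0, 46.2 and 58.6 CPM in cochlear and 73.9, 71.7 and 66.1 in vestibular libraries. The groups did not overlap, but the 1.33-fold difference lay at the edge of the threshold (log2 fold change 0.41, SE 0.13, adjusted p = 0.0466) and was no longer called when any library other than the third cochlear one was left out, with adjusted p of 0.0524 to 0.154.

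Ppard, the most widespread of the fatty acid receptors, had 40.7, 47.7 and 59.7 TMM-scaled CPM in cochlear and 56.6, 66.4 and 52.0 in vestibular libraries, with overlap (log2 fold change 0.24, adjusted p = 0.331). Ppara, which drives fatty acid oxidation in liver, was low at 2.60 to 3.07 CPM and 2.26 to 3.81 CPM (log2 fold change 0.23, adjusted p = 0.543). Nr1h3, the LXR-alpha gene, had 1.63 to 2.19 and 1.78 to 2.03 CPM (log2 fold change -0.06, or 0.06 without TMM scaling, adjusted p = 0.877). The fat cell regulator Pparg had 10 to 14 counts in each library of both tissues. The bile acid receptor Nr1h4 had 10 to 27 counts, and the foreign compound receptor Nr1i3 had 4 to 16. Nr1i2 had no count in the cochlea and 2 to 5 in the vestibular libraries, and the liver regulators Hnf4a and Hnf4g had 0 to 3.

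Among the receptors that work with the circadian clock, both ROR genes were called higher in the cochlea, beside 11.6% of all genes. Neither REV-ERB gene was called. REV-ERB repressors and ROR activators compete for the same response elements in clock promoters. Rora (chr9:68653786-69388246) had 29.7, 49.5 and 54.3 TMM-scaled CPM in cochlear and 22.6, 25.6 and 25.6 in vestibular libraries. The first cochlear library came close to the vestibular range without entering it, and the 1.81-fold difference (log2 fold change -0.86, SE 0.22, adjusted p = 0.0186) lost its call without the second cochlear, the first vestibular or the second vestibular library (adjusted p = 0.0761, 0.0696 and 0.0647). Rora exons overlap the antisense gene Gm15511. Rorb (chr19:18930605-19111196), known from retina and cortex, had 2.55, 2.11 and 2.55 CPM in cochlear and 0.520, 0.370 and 0.477 in vestibular libraries. That was 190 counts against 41, a CPM ratio of 4.76 with an exact 95% interval of 3.39 to 6.85 that covers counting error only, and the fitted log2 fold change was -2.38 (SE 0.27, adjusted p = 0.000274). Since Rorb passed the detection filter through the cochlea, its call and its detection rest on the same libraries.

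Nr1d2, the REV-ERB-beta gene, was among the steadiest receptors, with 67.3, 76.6 and 70.1 TMM-scaled CPM in cochlear and 74.4, 73.6 and 74.7 in vestibular libraries (log2 fold change 0.06, 95% interval -0.20 to 0.32, adjusted p = 0.746). Nr1d1, the REV-ERB-alpha gene, had 8.50, 12.3 and 13.3 CPM in cochlear and 14.3, 20.3 and 19.3 in vestibular libraries. Its groups did not overlap, and it missed the threshold in the quasi-likelihood test (log2 fold change 0.65, SE 0.22, adjusted p = 0.0547) while DESeq2 called it (adjusted p = 0.0296). Exons of Nr1d1 overlap the thyroid hormone receptor gene Thra on the opposite strand.

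The steroid and oestrogen-related receptors held opposite changes within a single family. The oestrogen-related receptors bind DNA like the oestrogen receptors, have no known natural steroid ligand and regulate energy metabolism, and Esrrb is a known deafness gene that marks the potassium-secreting cells of the stria and vestibule. Esrrb (chr12:86361117-86521628) had 13.3, 15.9 and 19.8 TMM-scaled CPM in cochlear and 150.0, 177.6 and 173.9 in vestibular libraries. The lowest vestibular library lay far above the highest cochlear library, and Esrrb was 10.2-fold higher in the vestibule (log2 fold change 3.35, SE 0.18, adjusted p = 5.93e-06). Summed markers of dark and marginal cells were also higher there, 1381 to 1530 against 879.3 to 1115 CPM. Esrrg (chr1:187608791-188214885), known from neurons and oxidative tissues, went the other way with 51.7, 39.0 and 16.4 CPM in cochlear and 7.09, 3.15 and 3.14 in vestibular libraries. The groups did not overlap although the cochlear values spread widely, and Esrrg was 7.90-fold higher in the cochlea (log2 fold change -2.98, SE 0.47, adjusted p = 0.00171). The third cochlear library, lowest for Esrrg, also had the lowest neuronal marker sum of that tissue, 317.4 against 686.2 and 683.8 CPM. The first vestibular library had a higher neuronal sum, 351.5 CPM, with 7.09 CPM of Esrrg. A tie of Esrrg to neuronal content was not tested. Without the third cochlear library the log2 fold change of Esrrg was -3.33. Esrra, the most widespread gene of the family, had 13.0, 8.72 and 11.4 CPM in cochlear and 16.3, 17.1 and 14.2 in vestibular libraries, with no overlap and no call (log2 fold change 0.53, SE 0.19, adjusted p = 0.0681).

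Nr3c1, the glucocorticoid receptor gene, had 68.4, 69.2 and 65.1 TMM-scaled CPM in cochlear and 113.1, 93.1 and 93.5 in vestibular libraries. All vestibular values lay above all cochlear values, and Nr3c1 was 1.48-fold higher in the vestibule (log2 fold change 0.56, SE 0.13, adjusted p = 0.0107). Nr3c2, the mineralocorticoid receptor gene that binds aldosterone, had 7.29, 6.61 and 8.38 CPM against 5.83, 6.70 and 4.41, with overlap (log2 fold change -0.39, adjusted p = 0.216). The progesterone receptor gene Pgr had 2.22 to 2.94 CPM in cochlear and 1.67 to 2.22 in vestibular libraries (log2 fold change -0.35, adjusted p = 0.307). Esr2, the oestrogen receptor beta gene, had 0.982 to 1.38 and 0.993 to 2.03 CPM (log2 fold change 0.19, adjusted p = 0.704). Esr1, the oestrogen receptor alpha gene, was below the filter with 10, 8 and 6 counts in cochlear and 27, 24 and 18 in vestibular libraries. These counts did not overlap, the cochlea to vestibule CPM ratio was 0.358 with an exact 95% interval of 0.215 to 0.576 from counting error, and edgeR called Esr1 in the fit without a filter on low counts.

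The COUP-TF, TR2/TR4 and tailless group held the widest difference. Its 3 called genes, of 6 detected, were each higher in the cochlea, beside 11.6% of all genes. Nr2e1 (chr10:42561963-42583632) encodes tailless, a repressor that keeps neural and retinal progenitors dividing. It had 41.5, 61.3 and 41.9 TMM-scaled CPM in cochlear and 0.219, 0.0741 and 0.0794 in vestibular libraries. The cochlear libraries held 3813 counts of Nr2e1 and the vestibular libraries 12 in all, a CPM ratio of 327 with an exact 95% interval of 187 to 633 that covers counting error only. Of these 12 counts 8 were in the first vestibular library, and the fitted log2 fold change without it was -9.19. The fitted log2 fold change was -8.45 with all 6 libraries (SE 0.35, adjusted p = 3.47e-06), and as the gene was detected through the cochlea alone its call and its detection are not separate results. Nr2e3, the related photoreceptor gene, had 1 to 2 counts in the cochlear and 1 to 7 in the vestibular libraries and was not tested.

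Nr2f1 (chr13:78188973-78199757), the COUP-TFI gene known from mutant mice to shape the cochlea, had 196.4, 278.1 and 309.2 TMM-scaled CPM in cochlear and 34.5, 36.9 and 26.2 in vestibular libraries. The groups were far apart, and Nr2f1 was 8.03-fold higher in the cochlea (log2 fold change -3.01, SE 0.21, adjusted p = 2.34e-05). Exons of Nr2f1 overlap the antisense gene A830082K12Rik. Nr2f2 (chr7:70351944-70366735), the COUP-TFII gene known from veins, mesenchyme and sensory progenitors, had 88.6, 113.4 and 111.5 CPM in cochlear and 36.0, 41.7 and 32.6 in vestibular libraries. It did not overlap either and was 2.84-fold higher in the cochlea (log2 fold change -1.51, SE 0.15, adjusted p = 0.000161). Nr2f6, the most distant COUP-TF gene, had 31.5, 33.2 and 31.5 CPM against 28.8, 28.8 and 38.3, with a log2 fold change of -0.0037 (95% interval -0.34 to 0.34, adjusted p = 0.990) whose sign turned without TMM scaling (0.11). The TR2 gene Nr2c1 had 23.7 to 26.9 CPM in cochlear and 28.8 to 32.7 in vestibular libraries, which did not overlap but missed the threshold (log2 fold change 0.26, adjusted p = 0.163). The TR4 gene Nr2c2 had 53.9 to 69.8 and 41.2 to 56.4 CPM (log2 fold change -0.30, adjusted p = 0.206).

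The NR4A receptors, which are rapidly induced by many stimuli and act without a known hormone, split in direction. Nr4a3 (chr4:48045153-48086447), the NOR1 gene, had 4.77, 5.17 and 7.02 TMM-scaled CPM in cochlear and 58.3, 57.2 and 43.0 in vestibular libraries. The groups were well apart, and Nr4a3 was 9.32-fold higher in the vestibule (log2 fold change 3.22, SE 0.20, adjusted p = 1.34e-05). Nr4a2 (chr2:57106830-57124003), the NURR1 gene of dopamine neurons, had 8.96, 9.93 and 10.6 CPM in cochlear and 5.67, 5.85 and 4.97 in vestibular libraries. It did not overlap and was 1.79-fold higher in the cochlea (log2 fold change -0.84, SE 0.18, adjusted p = 0.00786). Nr4a1 (chr15:101254269-101274795), the NUR77 gene, had 28.2, 31.2 and 24.3 CPM in cochlear and 26.2, 27.7 and 24.1 in vestibular libraries. These ranges overlapped (log2 fold change -0.10, or 0.02 without TMM scaling, 95% interval -0.43 to 0.22, adjusted p = 0.635).

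The 3 NR4A promoters are shown because the genes differ in direction while their upstream bases share a motif. The lines give the 250 bases before the RefSeq start site, at chr15:101266596-101266845 on the plus strand for Nr4a1, chr2:57124004-57124253 on the minus strand for Nr4a2 and chr4:48045055-48045304 on the plus strand for Nr4a3 (GRCm38.p6), and capitals mark TGACG or its complement CGTCA, the core of cAMP response elements.

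Nr4a1: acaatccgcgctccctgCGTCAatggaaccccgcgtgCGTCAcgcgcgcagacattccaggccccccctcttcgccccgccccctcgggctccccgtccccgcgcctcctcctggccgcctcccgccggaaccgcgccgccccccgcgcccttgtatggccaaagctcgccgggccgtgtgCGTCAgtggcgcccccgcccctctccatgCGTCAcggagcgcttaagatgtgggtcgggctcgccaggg
Nr4a2: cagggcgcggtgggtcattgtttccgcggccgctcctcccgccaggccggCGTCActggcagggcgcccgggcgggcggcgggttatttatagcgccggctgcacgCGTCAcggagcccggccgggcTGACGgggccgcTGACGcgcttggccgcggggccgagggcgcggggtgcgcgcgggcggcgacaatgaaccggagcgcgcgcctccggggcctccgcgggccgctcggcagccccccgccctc
Nr4a3: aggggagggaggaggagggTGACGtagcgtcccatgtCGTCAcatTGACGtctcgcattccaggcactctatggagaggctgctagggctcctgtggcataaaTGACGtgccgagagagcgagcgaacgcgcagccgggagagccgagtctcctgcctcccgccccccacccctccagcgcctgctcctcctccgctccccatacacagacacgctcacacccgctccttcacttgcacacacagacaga

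Each of the 3 held 4 copies. At least 1 copy on either strand was present in 20.8% of all 32851 promoter windows and at least 4 copies in 76 windows (0.231%), and among the receptors only these 3 genes had 4 or more. The full palindrome TGACGTCA, which contains TGACG on both strands, occurred in 1.79% of all windows and among the receptors in those of Nr2e1 and Nr6a1. The half-site AGGTCA bound by many nuclear receptors occurred in 16.3% of all windows and in those of 10 receptors, of which Rxrg was the only one called. The E-box CACGTG of clock factors occurred in 7.15% of all windows and in those of Esr2, Nr0b2, Nr1i3 and Rara. Motifs and the promoters shown were chosen after the expression values were seen.

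In the remaining group of NR5, NR6 and NR0 receptors only Nr6a1, the germ cell nuclear factor, was detected. It had 6.99, 7.29 and 12.7 TMM-scaled CPM in cochlear and 7.75, 15.9 and 8.58 in vestibular libraries, and the spread within a tissue exceeded the difference (log2 fold change 0.25, 95% interval -0.51 to 1.02, adjusted p = 0.616). Nr5a1, the regulator of adrenal and gonadal steroid synthesis, had 0 to 2 counts in a library, and Nr0b2, which lacks a DNA-binding domain, had 0 to 4.

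Levels were compared between genes as RPKM (CPM divided by transcript length in kilobases), from the deposited log2 values. In the cochlea Nr2f1 led with 52.7 ± 11.8 RPKM (mean and SD, n = 3), followed by Rxra with 34.4 ± 4.19, Nr2f2 with 20.6 ± 2.46, Rxrb with 19.9 ± 2.24 and Rarb with 17.0 ± 0.1002. The lowest Nr2f1 library (5.34 log2 RPKM) still lay above the highest Rxra library (5.25), whereas Nr2f2 and Rxrb did not differ beyond their spread. In the vestibule Rxra with 29.2 ± 1.72 RPKM and Esrrb with 28.8 ± 2.01 led and overlapped, followed by Rxrb with 23.4 ± 1.54, Nr1h2 with 21.9 ± 2.26 and Nr1d2 with 15.5 ± 0.693. Esrrb stood at rank 22 of 32 in the cochlea with 2.60 ± 0.555 RPKM and at rank 2 in the vestibule. Nr2f1 moved from rank 1 to rank 15 with 7.18 ± 1.49 RPKM, and Nr2e1 from rank 9 with 12.4 ± 2.43 to rank 32 with 0.0379 ± 0.0249. Rorb was lowest in the cochlea, 0.210 ± 0.0288 RPKM.

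**Figure D3:**
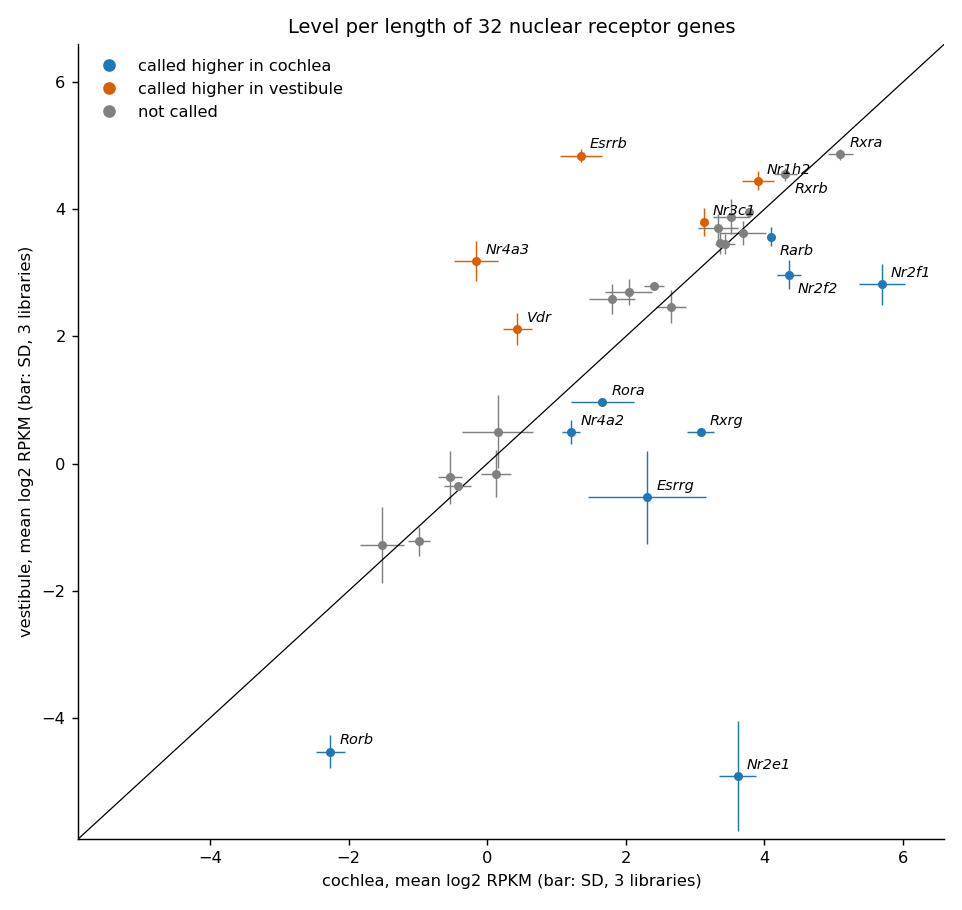
Mean log2 RPKM of the 32 detected receptors in the vestibule (y axis) against the cochlea (x axis), with SD bars over 3 libraries and a line at equal level. Nr2f1 and Nr2e1 lie far below the line and Esrrb and Nr4a3 far above it, while Rxra and Rxrb lie near it at the high end.

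Shares within a family, computed in each library and therefore free of scaling between libraries, showed how the make-up differed. Of the summed RPKM of the oestrogen-related genes, Esrrb held 14.0%, 21.3% and 31.5% in the cochlear and 76.6%, 80.2% and 82.5% in the vestibular libraries. Esrrg held 53.2%, 50.9% and 25.4% in the cochlea against 3.53%, 1.39% and 1.45%, so that the leading gene was Esrrg in 2 cochlear libraries, Esrra in the third and Esrrb in each vestibular library. The family sum was 12.3 ± 2.66 RPKM in cochlear and 36.1 ± 2.20 in vestibular libraries. Among the NR4A genes Nr4a3 held 6.53% ± 1.81 in cochlear and 42.5% ± 2.65 in vestibular libraries, while Nr4a1 held 76.8% ± 4.01 and 50.9% ± 2.48 without a called change of its own. The COUP-TF genes summed to 83.6 ± 14.2 RPKM in cochlear and 26.2 ± 1.296 in vestibular libraries, and the leading gene was Nr2f1 at 62.6% ± 3.55 in the cochlea and Nr2f6 at 42.7% ± 7.502 in the vestibule. Rxrg held 13.7% ± 2.62 of the RXR sum in cochlear and 2.62% ± 0.143 in vestibular libraries, and Rxra held 54.7% ± 4.21 and 54.0% ± 1.85. Rarb held 41.0% ± 4.03 of the RAR sum in cochlear and 30.4% ± 1.65 in vestibular libraries, where Rarg held the largest mean share with 37.9% ± 2.48. The shares are a description and were not tested.

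**Figure D4:**
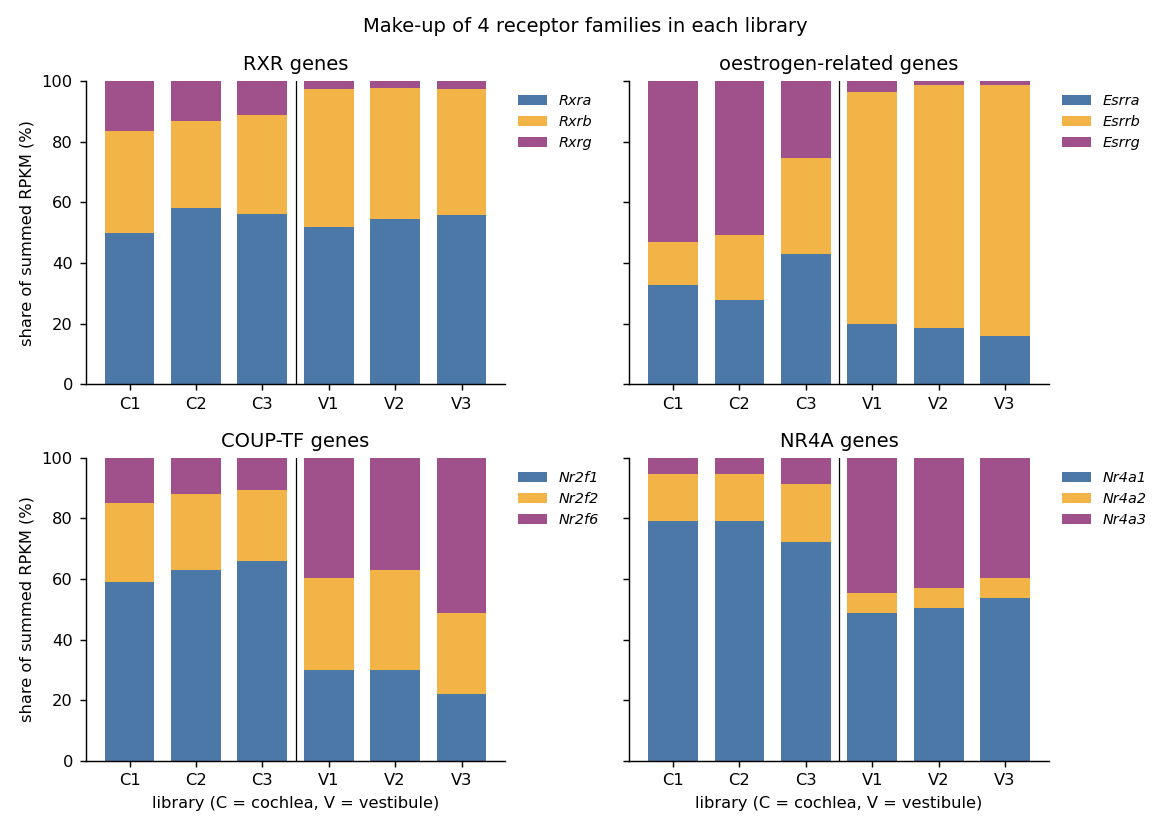
Share of the summed RPKM (%, y axis) held by each gene of the RXR, oestrogen-related, COUP-TF and NR4A families in the cochlear libraries C1 to C3 and the vestibular libraries V1 to V3. Esrrb takes 76.6% to 82.5% of the oestrogen-related sum in the vestibule, and Nr4a3 takes 39.6% to 44.8% of the NR4A sum there against 5.43% to 8.62% in the cochlea.

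Genes for the proteins that receptors recruit were read against the 11.6% of all genes called higher in the cochlea and the 15.8% called higher in the vestibule. Of 14 coactivator genes tested only Kat2b, a histone acetyltransferase gene, was called, with 19.0 ± 4.96 TMM-scaled CPM in cochlear and 48.4 ± 5.13 in vestibular libraries (log2 fold change 1.35, adjusted p = 0.00121), and the median log2 fold change of the list was 0.09. With DESeq2, 3 coactivator genes were called. Of 14 corepressor genes 3 were called higher in the vestibule and 1 in the cochlea, near the shares over all genes. In all 2 were called when the second cochlear or the first or second vestibular library was left out. Zfpm2, a cofactor of GATA and COUP-TF proteins, had 13.6 ± 1.66 CPM in cochlear and 40.9 ± 5.01 in vestibular libraries (log2 fold change 1.58, adjusted p = 0.000147), Tle1 had a log2 fold change of 0.59, and Tbl1xr1, a subunit of the NCoR complex, had one of -0.53 (adjusted p = 0.0405). The central corepressor gene Ncor1 was not called (log2 fold change 0.31, adjusted p = 0.480).

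Enzymes that make or remove steroid and vitamin D ligands had 2 of 9 tested genes called in each direction, beside 11.6% of all genes higher in the cochlea and 15.8% higher in the vestibule, and 2 in all when the first or second cochlear or the first vestibular library was left out. Hsd11b2, which inactivates corticosterone, had 13.5 ± 5.09 TMM-scaled CPM in cochlear and 1.84 ± 0.363 in vestibular libraries (log2 fold change -2.89, adjusted p = 0.000221). Hsd11b1, which regenerates it, was low in both and also higher in the cochlea, with 1.91 ± 0.278 against 0.295 ± 0.0332 CPM (log2 fold change -2.68, adjusted p = 0.000205). Cyp11a1, the entry enzyme of steroid synthesis, was higher in the vestibule at 1.77 ± 0.255 CPM against 0.345 ± 0.193 (log2 fold change 2.33, adjusted p = 0.00281). Hsd11b1 reached 1 CPM in the cochlea alone and Cyp11a1 in the vestibule alone, so for both the call and the detection are not separate results.

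Genes known to respond to the glucocorticoid receptor had a median log2 fold change of 0.88 over 11 genes, and 5 were called, each higher in the vestibule, as were 15.8% of all genes. Without TMM scaling 9 were called. The summed level was 502.6, 647.8 and 567.4 TMM-scaled CPM in cochlear and 648.4, 743.3 and 1054 in vestibular libraries. The third vestibular library thus stood above the others, and 4 genes were called without it. Leaving out any cochlear library or the second vestibular library also gave 4, and leaving out the first vestibular library gave 7. Mt2, a metallothionein, had 4.48, 6.38 and 5.13 CPM in the cochlea against 11.6, 16.7 and 26.7 (log2 fold change 1.77, adjusted p = 0.00288). The transcription factor genes Zbtb16 and Cebpd had log2 fold changes of 1.77 and 1.59 (adjusted p = 0.0139 and 0.00248). Of 12 genes known to respond to fatty acid receptors 4 were called, each higher in the vestibule, beside 15.8% of all genes, with log2 fold changes of 3.41 for Lpl and 1.77 for Cd36, and the median of that list was 0.17. Of 10 LXR-responsive genes 3 were called in each direction, beside 11.6% and 15.8% of all genes, with a median of 0.21, and 2 in all were called without the first and 3 without the second cochlear library. The sterol transporter pair Abcg5 and Abcg8 was higher in the cochlea (log2 fold change -4.94 and -4.67), where alone both genes reached 1 CPM, so that their calls are no results apart from their detection. Apoe was higher in the vestibule with 925.1 ± 86.8 against 336.2 ± 38.4 CPM (log2 fold change 1.46). Macrophage markers, which stand for cells that also express Apoe, Lpl and Cd36, were higher in the vestibule in 10 of 10 cases. So were 7 of 9 endothelial, 6 of 7 melanocyte and 4 of 8 Schwann cell markers, while 1 endothelial marker was higher in the cochlea. The part of any of these cells in the values of Apoe, Lpl and Cd36 was not tested.

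Of 15 clock genes 3 were called, each higher in the vestibule, near the 15.8% of all genes, and the median log2 fold change was 0.40. Npas2, a partner of the clock activator BMAL1, had 1.23 ± 0.894 TMM-scaled CPM in cochlear and 12.4 ± 2.52 in vestibular libraries (log2 fold change 3.32, adjusted p = 0.000766). It reached 1 CPM in 1 cochlear library and so was tested through the vestibule, where it was high. Nfil3 and Hlf, which act on D-box sites, had log2 fold changes of 0.88 and 0.87, while Arntl, the BMAL1 gene and a known target of RORs and REV-ERBs, had -0.03 (adjusted p = 0.914). Immediate early genes, which are induced together with the NR4A genes in many cells, were called in both directions, 2 of 14 each way, near the 11.6% and 15.8% of all genes. Their summed level was 296.0 to 316.3 TMM-scaled CPM in the cochlea and 292.5, 320.5 and 431.2 in the vestibular libraries, so that the third stood above the others, and 2 genes in all were called without it or without the first cochlear library. Fosl2 and Dusp1 were higher in the vestibule (log2 fold change 1.44 and 0.94), where Dusp1 had 24.4 CPM in the third library beside 11.5 and 12.0, and Btg2 was higher in the cochlea (-0.65), and Fos itself missed the threshold (1.85, adjusted p = 0.0509), with 25.6 CPM in the third vestibular library beside 6.96 and 7.22. Per1 and Dusp1 stand in more than 1 of these lists.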

How the data were processed

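Per the labels and the study's methods, libraries were made with a stranded mRNA kit and sequenced as paired ends, reads were aligned to GRCm38, and read counts per Ensembl gene were deposited without normalization. The submitters' processing notes name TopHat2 2.1.0, SAMtools 0.1.18, HTSeq 0.5.4p5 and edgeR 3.4.2. The strand setting of the counting is not given in the sources used here. The authors also deposited log2 RPKM values for the genes past their filter, scaled by library size without TMM. The 5 summary lines of each count file (18.5% to 20.6% of all listed counts) stayed out of library sizes and tests.

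All genes that reached 1 CPM in at least 3 libraries entered a quasi-likelihood fit of edgeR 4.0.16 (R 4.3.3) after TMM scaling, with tissue as the only term, Benjamini-Hochberg adjustment over all 14723 genes tested and an FDR of 0.05. The biological coefficient of variation was 0.195. Scripts were tested on simulated data with 200 changed genes. Counts of libraries of the same tissue differed by more than sampling noise (lowest chi-square per degree of freedom 31.0), so none was taken for another library deposited again, which does not show that they came from separate RNA pools. Receptors called, or among the 10 highest by mean log2 RPKM in a tissue, are given by library, and at most 3 called genes of each other list are named by size of change, with a few that were not called (Ncor1, Arntl, Fos) chosen after their values were seen. Gene positions are from GENCODE M21, promoters from RefSeq. The members and lists were chosen with earlier results of these data known. Prmt1 found no match among the counted genes. Alternatives were RLE, upper quartile and no scaling, other filters, DESeq2 1.42.0, limma-voom (limma 3.58.1), the likelihood ratio test, an FDR of 0.1 with a fold of 1.3, a replicate block and leaving out each library. Figures used matplotlib 3.10.9. Protein data of the study were not used here, and some genes of the lists are not reported here.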

Additional observations from a re-analysis of the deposited data

How the results depend on the processing

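The 14 receptor calls were kept in full without TMM scaling, with upper quartile scaling, DESeq2, limma-voom, the likelihood ratio test and the FDR of 0.1 with a fold of 1.3. RLE size factors, no filter and filterByExpr each lost only Nr1h2. The replicate numbers did not pair the libraries (correlations of same-numbered deviations -0.18, -0.26 and -0.47), and with the replicate block 3 receptors instead of 5 were called higher in the vestibule, Nr1h2 and Nr3c1 being lost (adjusted p = 0.156 and 0.0641), while all genes called fell to 1009 and 1609. Leaving out each library gave 6 to 9 receptors higher in the cochlea and 4 to 6 higher in the vestibule. Without any 1 cochlear library Nr2e1 and Rorb failed the filter by construction. With the genes of the full fit kept, an alternative chosen after seeing the data, 12 to 14 of the 14 calls were kept. With the filter reapplied, all genes called were fewest without the second vestibular library, 925 higher in the cochlea and 1342 higher in the vestibule.

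Coactivators called were 3 with no filter, DESeq2, the likelihood ratio test and the FDR of 0.1, and 1 to 2 with a library left out (2 without the first or the third cochlear or the third vestibular). Corepressors called were 1 under the replicate block and 2 to 3 with a library left out (2 without the second cochlear or the first or second vestibular), and ligand enzymes 2 to 4 (2 without the first or second cochlear or the first vestibular). Glucocorticoid-responsive genes called were 9 without TMM scaling and 8 with no filter, DESeq2, the likelihood ratio test and the FDR of 0.1. LXR-responsive genes called were 3 under the replicate block and 2 to 6 with a library left out (2 without the first and 3 without the second cochlear), clock genes 5 at the FDR of 0.1 and 2 to 5 (5 without the third cochlear), and immediate early genes 2 to 4 (2 without the first cochlear or the third vestibular). The sign turned for uncalled receptors with log2 fold changes near 0. Nr1h3 was at 0.061 without TMM scaling and ranged from -0.18 to 0.020 with a library left out. Nr2f6 was at 0.11 without TMM scaling and 0.013 with upper quartile scaling, and ranged from -0.15 to 0.086 with a library left out. Nr4a1 was at 0.024 without TMM scaling. With a library left out Esr2 ranged from -0.18 to 0.40 and Nr6a1 from -0.12 to 0.58. With the genes of the full fit kept, the turned values were 0.025 for Nr1h3 and 0.023 for Nr2f6 without the second cochlear library, 0.067 and 0.066 for Nr2f6 without the first and the second vestibular library, -0.19 for Esr2 without the first and -0.14 for Nr6a1 without the second vestibular library. The cause of these shifts was not tested. Depth limits the 12 receptors below the filter, whose levels rest on 0 to 46 counts per library.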
